A study of Mus musculus with 6 samples.

Results

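Mature migratory dendritic cells were taken from droplet single-cell RNA sequencing of pancreatic tumours in 6 KPC mice. They were defined by 3 marker genes, and 69 of 39928 cells that passed quality control met the definition. A member had at least 3 unique molecular identifiers (UMIs, each counting 1 captured RNA molecule) summed over Ccr7, Fscn1 and Ccl22, with at least 2 of the 3 detected. It also had at least 5 UMIs over the class II genes H2-Aa, H2-Ab1 and Cd74 and at most 2 over the macrophage complement genes C1qa, C1qb and C1qc. Cd3e of T cells, Cd79a of B cells and Epcam of epithelium had to be at 0. Measured values of these genes chose the members, so their levels are a description with no test.

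Of the 6 mice, 3 were treated with trametinib, an inhibitor of the kinase MEK, at 1 mg/kg together with hydroxychloroquine, which raises lysosomal pH, at 40 mg/kg, both by mouth. The other 3 received vehicle, which was corn oil and water. Tumours measured 4 to 7 mm at enrolment, were collected 24 h after treatment, and gave 1 library each. Every mouse carried the KPC alleles KrasLSL.G12D/+, p53LSL.R172H/+ and Pdx1-Cretg/+, so both mutations are switched on by a Cre driven from the Pdx1 promoter in pancreatic epithelium, a lineage that dendritic cells do not come from. The age of the mice is not given in the labels. Treated mice 1, 2 and 3 gave 4111, 5412 and 6385 cells, and vehicle mice 1, 2 and 3 gave 2186, 10415 and 11419. Median depth was 8482 to 11335 UMIs per cell in treated mice and 3222 to 4662 in vehicle mice. Vehicle 1 was the smallest library, with 22996012 UMIs of a range that reached 126645602. No member barcode was listed in another library.

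Dendritic cells sample tissue for antigen and present it to T cells. On maturation they take up less antigen, raise peptide display and costimulation, and express CCR7, the receptor for the lymphatic chemokines CCL19 and CCL21, which guides them to draining lymph nodes. In tumours such mature cells are also known for carrying inhibitory molecules, PD-L1 among them, beside their stimulatory ones, and for chemokines that draw T cells.

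The rule required at least 2 of the 3 marker genes, so their joint detection in members is a description. Ccr7 (ENSMUSG00000037944, chromosome 11, 99144196 to 99155077, mm10, minus strand) was detected in 67 of 69. Fscn1 (ENSMUSG00000029581, chromosome 5, 142960343 to 142973185, plus strand), which encodes an actin-bundling protein of dendrites, was detected in 61. Ccl22 (ENSMUSG00000031779, chromosome 8, 94745590 to 94751699, plus strand), a chemokine for cells bearing CCR4, was detected in 55. All 3 genes were found in 45 members, and the pair of Ccr7 and Fscn1 without Ccl22 in 14. The summed marker count had a median of 16 and a highest value of 75. It stood at the lower bound of 3 in 3 members, and 7 further cells, all in vehicle mice, met every other bound with a sum of 2. More cells missed another bound, given here for treated 1 to 3 and then vehicle 1 to 3. A sum of at least 3 came from 1 marker only in 11, 17, 50, 5, 26 and 24 cells. The C1q, Cd3e, Cd79a or Epcam bounds removed 1, 4, 16, 1, 20 and 33 cells. The class II bound alone removed 5, 3, 7, 1, 8 and 5. The class II sum ran from 5 to 682 with a median of 72.

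The label was checked against markers of other cells, separately for 65 members with at most 10119 UMIs each and for the other 4. In the 65, the defining markers Clec9a and Tlr3 (type 1), Cd209a (type 2) and Siglech (plasmacytoid) and all 5 natural killer cell markers were at 0, and Xcr1 had 1 UMI. Other genes of those lists were detected. The 4 of 6 type 1 markers found summed to between 0 and 11.4 UMIs per 10000 (UMIs of a gene per 10000 UMIs of all genes in the same cells) over the mice, the 5 of 6 type 2 markers to between 0.67 and 6.27, and the 4 of 5 plasmacytoid markers to between 2.61 and 5.88. The plasmacytoid sum in members of treated 1 and 2 (2.89 and 3.58) was above that of other dendritic cells there (1.17 and 1.96). Summed macrophage markers ran from 0.67 to 3.16 UMIs per 10000 over the mice, and fibroblast markers from 0.22 to 6.2. The macrophage list includes the C1q genes that the rule limits, so its low sum is partly set by the rule. The other 4 had over 20000 UMIs. The treated 2 cell had 70820 UMIs, the treated 3 cell 89124, the vehicle 2 cell 22509 and the vehicle 3 cell 21978. Fibroblast markers took 5.14% of UMIs in the treated 3 cell, 0.809% in the vehicle 2 cell and 1.77% in the vehicle 3 cell, and the treated 2 and vehicle 2 cells were called doublets. The other 2 of the 4 members called doublets are among the 65. The one in treated 1 had a marker sum of 33. The one in treated 3 stood at the lower bound of 3 without Ccl22, with 12.7% mitochondrial and 1.37% monocyte marker UMIs, so the label is doubtful for that cell. The 4 cells over 20000 UMIs held 61.3% of all member UMIs in treated 2, 63.8% in treated 3, 42.4% in vehicle 2 and 17.5% in vehicle 3. Gene levels below are therefore those of the 65 members, a limit set after the data were seen, and counts of calls are given with and without the 4 cells.

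Mature dendritic cells were rare in both groups and their share did not separate treated from vehicle tumours. Treated 1 held 10 members, or 0.243% of its cells (exact 95% interval 0.117% to 0.447%). Treated 2 held 7, or 0.129% (0.0520% to 0.266%), and treated 3 held 9, or 0.141% (0.0645% to 0.267%). Vehicle 1 held 4 members, or 0.183% (0.0499% to 0.468%), vehicle 2 held 7, or 0.0672% (0.0270% to 0.138%), and vehicle 3 held 32, or 0.280% (0.192% to 0.395%). The highest and the lowest share were both in vehicle mice, and vehicle 3 alone gave 32 of the 69 members. The intervals cover counting error only. The share averaged 0.171% ± 0.0627 in treated mice and 0.177% ± 0.107 in vehicle mice (SD, n = 3 each), a difference of -0.00562 percentage points (two-sided exact permutation test, p = 1, smallest possible 0.1). Its sign turned to 0.0158 among cells with at most 20000 UMIs and to 0.220 among cells with Ptprc, the leukocyte gene CD45 (exact permutation p = 0.9 and 0.3). With cells thinned to 2000 UMIs each, the means were 0.142% in treated and 0.255% in vehicle mice. That difference was -0.113 percentage points (exact permutation p = 0.4).

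**Figure D1:**
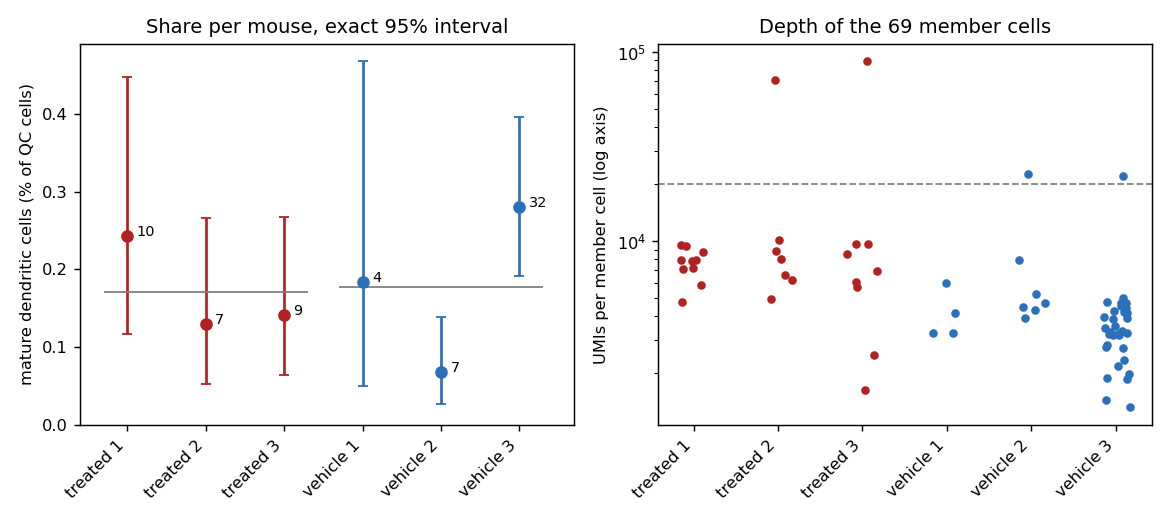
Left, members as a percentage of cells passing quality control in each mouse (points, with exact 95% binomial intervals, the number of members beside each point and a line at the group mean). Right, UMIs of each of the 69 members on a log axis with a dashed line at 20000: treated members mostly lie above vehicle members, and 4 cells stand above the line.

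Among dendritic cells the mature share also overlapped between the groups. Cells that met the other bounds but not the marker bound were called type 1-like from Xcr1 and Clec9a (18 cells) or type 2-like from Cd209a and Clec10a (20 cells). They could still carry some UMIs of the mature markers. Members made up 90.9%, 58.3% and 52.9% of these dendritic cells in treated 1, 2 and 3, and 36.4%, 46.7% and 78.0% in vehicle 1, 2 and 3. The means were 67.4% ± 20.5 in treated mice and 53.7% ± 21.7 in vehicle mice (SD, n = 3 each, exact permutation p = 0.5, smallest possible 0.1). Each mouse rests on 11 to 41 dendritic cells.

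Against the 38 other dendritic cells, the 65 members were higher in migration and NF-kB genes and mixed in chemokine and presentation genes. The rule chose cells on expression, so the levels and counts that follow describe how the cells differ, and fits across genes are quoted only for their counts. In a paired fit over 4 mice with at least 5 cells of both kinds (edgeR quasi-likelihood test with the mouse as a block), 118 of 683 genes were higher in members (17.3%) and 74 lower (10.8%). With all 69 members 61 of 852 were higher (7.16%) and 52 lower (6.10%), and 78 genes were called both ways, with the same sign. In all, 28.1% of genes were called without the 4 cells and 13.3% with them. Against type 1-like cells alone (3 mice) 60 of 646 genes were higher (9.29%) and 37 lower (5.73%), and without the 4 cells 111 of 649 (17.1%) and 57 (8.78%). Among the largest rises with the 4 cells kept were matrix genes of fibroblasts, Col1a1, Col1a2, Col3a1 and Sparc. Col1a1 stood at 37.4 UMIs per 10000 in all 69 members and at 0.25 in the 65. Against type 2-like cells alone (6 mice) 47 of 613 were higher (7.67%) and 43 lower (7.01%), and without the 4 cells 66 of 418 (15.8%) and 43 (10.3%).

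Of 11 migration and cytoskeleton genes beyond Ccr7 and Fscn1, 10 were tested and called higher in members, where 17.3% of all genes were, and 8 with all 69 members, where 7.16% were. Some passed the filter on low counts only through the members in which they are high, so the count is no support by itself. Genes of the lists below could pass in the same way. Samsn1, an adaptor protein, averaged 12.2 UMIs per 10000 in members and 0.74 in other dendritic cells, pooled over mice. Tmem123, a membrane mucin-like protein, stood at 11.3 and 0.92, and Marcks, which links the membrane to actin, at 12.8 and 1.48. Cacnb3, a calcium channel subunit, was at 4.37 in members and had no UMI in other dendritic cells, where 3 UMIs would have been 0.106 per 10000. Cd63, a tetraspanin of late endosomes, was at 9.89 in members and 0.28 in other dendritic cells, but at 7.65 in C1q macrophages. Outside the list, Tbc1d4, a regulator of Rab GTPases, stood at 16.8 in members and 0.64 in other dendritic cells, and the fatty-acid-binding protein gene Fabp5 at 44.1 and 0.32.

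Chemokines went in both directions. Ccl5 (ENSMUSG00000035042, chromosome 11, 83525778 to 83530518, minus strand), a chemokine that attracts T cells, was at 67.4 UMIs per 10000 in members, 0.07 in other dendritic cells and 0.44 in C1q macrophages. Cxcl16, the ligand of CXCR6, was at 6.26 in members and 0.95 in other dendritic cells. Ccl4, an inflammatory chemokine, went the other way, with 0.56 in members and 8.24 in other dendritic cells. Cxcl9 had no UMI in members, and Ccl2, Ccl3 and Cxcl10 stayed at or below 0.34. Of the 4 chemokines tested beyond Ccl22, 2 were called higher (Ccl5 and Cxcl16) and 1 lower (Ccl4). The shares over all genes were 17.3% and 10.8%. Ccl17, which shares the receptor CCR4 with Ccl22, was at 19.2 in members and 3.92 in other dendritic cells, where it came from treated 3 (6.45) and vehicle 1 (10.6), and it was not called.

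NF-kB genes were higher in 5 of 6 tested, where 17.3% of all genes were. With all 69 members 4 of 6 were higher, where 7.16% of all genes were. Relb, a subunit of the alternative NF-kB pathway, stood at 4.71 UMIs per 10000 in members and 0.35 in other dendritic cells. Rel was detected in every one of the 65 members, at 16.7 against 2.51, and Traf1, an adaptor of TNF receptors, was at 6.76 against 1.48. The granzyme inhibitor gene Serpinb9 was at 4.53 in members and had no UMI in other dendritic cells.

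Both stimulatory and inhibitory genes were detected among members. Cd83, a maturation marker, was at 5.71 UMIs per 10000 in members and 0.88 in other dendritic cells, and it was detected in 52 of 65 members. Cd40, the receptor for T cell help, was detected in 25 members, Cd80 in 19 and Cd86 in 33. Cd274, which encodes PD-L1, was detected in 41 members at 2.79, against 0.35 in other dendritic cells. Il4i1, a secreted amino acid oxidase that restrains T cells, was at 4.74 in 49 members and had no UMI in other dendritic cells. Of members, 15 had UMIs of both Cd274 and Cd40, 26 of Cd274 alone, 10 of Cd40 alone and 14 of neither. Cd274 stood at only 2.79 UMIs per 10000, and members without a Cd40 UMI had a median depth of 4377.5 UMIs. A transcript that is present can go undetected at such counts. They therefore do not show that cells with a UMI of 1 gene lacked the other. Ido1 and Il10 had no UMI in the 65 members.

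Presentation genes did not move as 1 block. Over all genes 17.3% were called higher and 10.8% lower. For class II beyond the rule genes, 3 of 6 tested were lower in members and 1 higher. H2-DMa, which loads peptide onto class II, was at 2.23 UMIs per 10000 in members and 10.8 in other dendritic cells, and Ciita, the class II transactivator, at 0.96 and 3.61. Ifi30, a lysosomal thiol reductase for antigen processing, was at 16.0 and 8.55. For class I, 4 of 11 tested were higher, among them H2-K1 at 21.2 against 5.41 and B2m at 28 against 9.01, and the chaperones Calr and Pdia3 were lower. With all 69 members, Psme2 was the only class I gene called. Alox5ap of leukotriene synthesis was at 0.31 in members and 6.54 in other dendritic cells, and Naaa, a lysosomal amidase, at 0.06 and 5.97. The other dendritic cells carried Siglech at 6.71 in treated 3 and 12.3 in vehicle 3, which members lack, and its part in these differences was not tested.

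Set against C1q macrophages of the same tumours, members were low in uptake and lysosomal genes. In cells with at most 20000 UMIs (5 mice), 545 of 8845 genes were higher (6.16%) and 1631 lower (18.4%), with a median log2 fold change of -0.61 over all genes. With the 4 cells kept, 565 of 10104 were higher (5.59%) and 1012 lower (10.0%). Of 14 uptake and sensing genes tested, 12 were lower and 1, the endocytic receptor Ly75, higher. Lyz2 (lysozyme) was at 1.92 UMIs per 10000 in members and 162 in macrophages, and the lipid carrier Apoe at 0.78 and 205. With the 4 cells kept, the uptake counts were the same. Of 27 lysosomal genes, 22 were lower, and 21 with the 4 cells kept. The cathepsin gene Ctsd was at 1.02 in members and 17.7 in macrophages. Of 14 dendritic cell identity genes outside the rules 8 were higher, among them Flt3 (1.02 against 0.0034) and Zbtb46 (0.59 against 0.0067), and Sirpa and Itgam were lower. With the 4 cells kept 6 were higher and 2 lower. Of 15 class I genes, 10 were higher, among them the peptide transporter genes Tap1 and Tap2, and 2 lower (8 and 2 with the 4 cells kept). Of 11 migration genes beyond Ccr7 and Fscn1, 8 were higher and 0 lower either way. These macrophages had to hold at least 10 C1q UMIs, so C1q itself is no result.

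**Figure D2:**
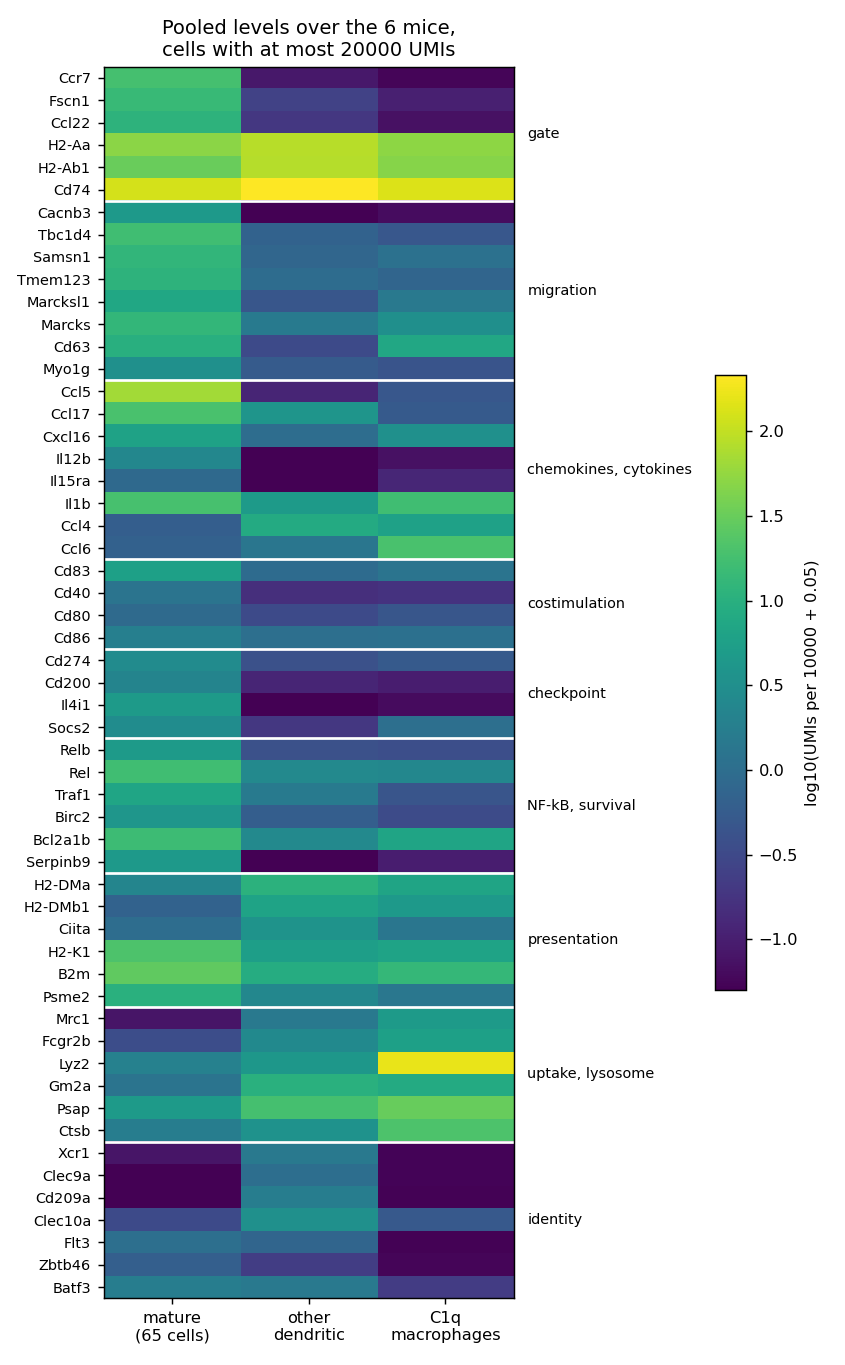
Pooled level of each gene (rows, grouped by role) in members with at most 20000 UMIs, other dendritic cells and C1q macrophages, coloured by log10 of UMIs per 10000 plus 0.05. Ccl5, Il4i1 and Serpinb9 are bright in members alone, and H2-DMa, H2-DMb1 and Lyz2 are darker there than in macrophages.

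Ccl5 was higher in members of each treated mouse than in those of any vehicle mouse, although no gene passed the test over all 69 members. Members were also more deeply sequenced in treated mice, with medians of 6958 to 7988 UMIs, against 3337.5 to 4717 in vehicle mice. Ccl5 stood at 118, 122 and 75.0 UMIs per 10000 in treated 1, 2 and 3, and at 15.0, 32.0 and 21.9 in vehicle 1, 2 and 3. The groups did not overlap, with means of 105 ± 26.1 in treated mice and 23.0 ± 8.56 in vehicle mice (SD, n = 3 each). The gene was detected in 44 of 65 members, at up to 245 UMIs in a cell. With each cell thinned to 2000 UMIs and cells pooled over mice as a description, 18 of 23 treated members and 21 of 36 vehicle members had a Ccl5 UMI, and the levels were 120 and 19.6. Ccl5 was at 0.26 or less in other dendritic cells of every mouse and at 0.01 to 1.84 in macrophages. In epithelial cells thinned alike, 0.220% of treated and 0.0841% of vehicle cells had a Ccl5 UMI.

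Across genes, the test over mice with at least 5 members (3 treated, 2 vehicle, all members) called 0 of 2026 genes (0%, edgeR quasi-likelihood), with 35 below an unadjusted 0.05. DESeq2 called 2, both lower. Vehicle 1, with 4 members, is left out of that fit. Among members with at most 20000 UMIs the same fit called 12 of 788 genes (1.52%), 5 higher (0.635%) and 7 lower (0.888%). With vehicle 1 added it called 0 of 598 (43 at an unadjusted p under 0.05), so each call below rests on the choice of cells and on 2 vehicle mice. Ccl5 had a log2 fold change of 1.92 ± 0.63 over all members (SE, edgeR, adjusted p = 1.0), 2.01 ± 0.37 in members with at most 20000 UMIs (edgeR, adjusted p = 3.06e-05) and 2.20 ± 0.48 with vehicle 1 added (edgeR, adjusted p = 0.0884). In such sums, fewer cells with a transcript and less of it per cell cannot be told apart.

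Ccl17 and Ccl22 gave no such separation. Ccl17 (ENSMUSG00000031780, chromosome 8, 94810453 to 94812036, plus strand) stood at 8.40, 8.51 and 4.54 UMIs per 10000 in treated mice, against 3.00, 13.4 and 43.2 in vehicle mice. Vehicle 1 lay below all 3 treated mice and vehicle 3 far above them. It was called lower in members with at most 20000 UMIs, by a log2 fold change of -1.97 ± 0.36 (edgeR, adjusted p = 3.49e-05), and was not called with vehicle 1 added (log2 fold change -1.47, edgeR, adjusted p = 0.666). Ccl22, a gene of the rule, stood at 1.44, 7.39 and 10.7 in treated mice, against 13.8, 10.1 and 19.9 in vehicle mice, which overlap slightly. Ccr7 stood at 20.9, 22.6 and 13.8 in treated mice, against 12.6, 21.6 and 16.9 in vehicle mice, with no separation.

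Cxcl2 and Il1b, which attract neutrophils and drive inflammation, were called lower in treated members when vehicle 1 was left out. Cxcl2 (ENSMUSG00000058427, chromosome 5, 90903871 to 90905938, plus strand) stood at 0.26, 0.22 and 0.79 UMIs per 10000 in treated mice, against 0.60, 9.80 and 22 in vehicle mice, with vehicle 1 inside the treated range. Its log2 fold change was -5.20 ± 0.52 without vehicle 1 (edgeR, adjusted p = 7.56e-18), and the gene was too low for the fit with vehicle 1 added. A Cxcl2 UMI was found in 1 of 10, 1 of 6 and 3 of 8 members of treated 1, 2 and 3, and in 1 of 4, 3 of 6 and 17 of 31 of vehicle 1, 2 and 3. After thinning to 2000 UMIs, with cells pooled over mice as a description, 1 of 23 treated members (4.35%) and 19 of 36 vehicle members (52.8%) had a Cxcl2 UMI, most of the vehicle members being from vehicle 3. In epithelial cells thinned alike the shares were 6.81% and 17.4%. Whether those UMIs are free RNA or the cells' own transcripts was not tested. Macrophages held Cxcl2 at 27.7 to 39.3 in treated mice and 11.4 to 54.7 in vehicle mice, and the part of their free RNA in the member values was not tested. A vehicle 2 cell held 24 Cxcl2 UMIs and a vehicle 3 cell 63, so the vehicle values rest partly on single cells. That vehicle 3 cell had 0.509% neutrophil marker UMIs. Summed neutrophil markers stood at 0, 0.45 and 0.39 UMIs per 10000 in treated members, against 2.40, 0.33 and 3.09 in vehicle members. The part of neutrophil RNA was not tested either. Il1b stood at 13.5, 7.39 and 7.70 in treated mice, against 1.80, 16.7 and 37.4 in vehicle mice, again with vehicle 1 lowest (log2 fold change -1.47 ± 0.34, edgeR, adjusted p = 0.00154, and 0.722 with vehicle 1 added).

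The promoters of 3 of these chemokine genes are shown because Ccl17 and Ccl22 are neighbours on chromosome 8. Cxcl2 lies elsewhere and was near 0 in treated members and in those of vehicle 1. Each runs 5′ to 3′ on the plus strand from 250 bases before to 50 bases after the RefSeq start (GRCm38.p6), and capitals mark matches to an NF-kB-type motif (3 G, any 2 bases, 2 T, any base, 2 C), searched on both strands.
Cxcl2, chr5:90903649-90903948: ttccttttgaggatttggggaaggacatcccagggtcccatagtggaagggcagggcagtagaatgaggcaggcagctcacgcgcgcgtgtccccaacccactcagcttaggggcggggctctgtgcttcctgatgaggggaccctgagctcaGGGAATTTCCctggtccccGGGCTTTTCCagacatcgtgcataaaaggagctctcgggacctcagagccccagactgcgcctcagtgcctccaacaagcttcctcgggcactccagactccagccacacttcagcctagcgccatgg
Ccl17, chr8:94810203-94810502: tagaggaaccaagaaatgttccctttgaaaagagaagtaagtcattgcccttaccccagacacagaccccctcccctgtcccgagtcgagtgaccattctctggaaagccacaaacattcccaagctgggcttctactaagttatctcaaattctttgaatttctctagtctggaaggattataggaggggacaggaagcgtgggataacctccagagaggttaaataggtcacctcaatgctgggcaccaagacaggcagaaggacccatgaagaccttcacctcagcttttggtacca
Ccl22, chr8:94745434-94745733: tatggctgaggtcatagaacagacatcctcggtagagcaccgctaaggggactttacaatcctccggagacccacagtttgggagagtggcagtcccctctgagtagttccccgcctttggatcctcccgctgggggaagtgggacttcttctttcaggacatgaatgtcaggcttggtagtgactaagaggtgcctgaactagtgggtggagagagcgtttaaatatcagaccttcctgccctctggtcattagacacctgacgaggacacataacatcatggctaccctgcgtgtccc
The 2 matches of Cxcl2 begin 97 and 78 bases before the start, and Ccl17 and Ccl22 had none in these windows. The Ccl5 promoter was not available. Promoters of Fscn1 and Il12b, searched alike, had no match to this form. This form occurs in 4.79% of 32851 mouse promoters of this length. It was 1 of 3 forms tried after the data were seen. A looser one, with any 5 bases between the G and C runs, occurs in 50.8% of promoters and matched Cxcl2 3 times, Ccl22 2 times and Ccl17 not at all, so the absence in Ccl22 holds for the tighter form only. A match describes the letters alone.

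Among the other calls, Epsti1, an interferon-induced gene (chromosome 14), stood at 7.61, 6.27 and 12.2 UMIs per 10000 in treated mice, against 0, 2.29 and 2.70 in vehicle mice, without overlap. Its log2 fold change was 1.81 ± 0.45 (edgeR, adjusted p = 0.00563), and 2.15 with vehicle 1 added (edgeR, adjusted p = 0.230). Ifitm1, a membrane protein that blocks virus entry, stood at 0.26, 0.90 and 0.20 in treated mice, against 1.20, 13.4 and 12.4 in vehicle mice, again without overlap (log2 fold change -4.85 ± 0.53, edgeR, adjusted p = 4.12e-15), and was too low for the fit with vehicle 1 added. Ifitm2 and Ifitm3 were called lower as well, at -1.86 and -2.32 (edgeR, adjusted p = 0.00120 and 0.00244), but not with vehicle 1 added (edgeR, adjusted p = 0.230 and 0.301). Ifitm1 also ran lower in treated macrophages, at 0.48 to 1.29 against 1.62 to 9.38 in vehicle macrophages, whose part in the member values was not tested. Of the interferon response list 1 gene was tested, and it was not called.

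Rrad, a Ras-related GTPase, stood at 3.02, 9.40 and 5.13 UMIs per 10000 in treated mice, against 0, 0.65 and 0.77 in vehicle mice. The groups did not overlap, and the log2 fold change was 2.97 ± 0.56 (edgeR, adjusted p = 3.06e-05; 0.0702 with vehicle 1 added). Lgals3, a galectin gene, was called lower (log2 fold change -1.77, edgeR, adjusted p = 0.0322) and was too low for the fit with vehicle 1 added. The remaining calls were Gm42418 and AY036118, which hold ribosomal RNA sequence and were also higher in every treated mouse among all other cells (302 to 436 UMIs per 10000 of Gm42418, against 2.55 to 64.0 in vehicle mice). By smallest p over all 69 members, with no call, Bex3, Smim14 and Paip2 leaned higher (log2 fold changes 2.22, 1.96 and 2.17) and Ifi27l2a, Egr1 and Ier2 lower (-3.38, -2.69 and -1.84).

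**Figure D3:**
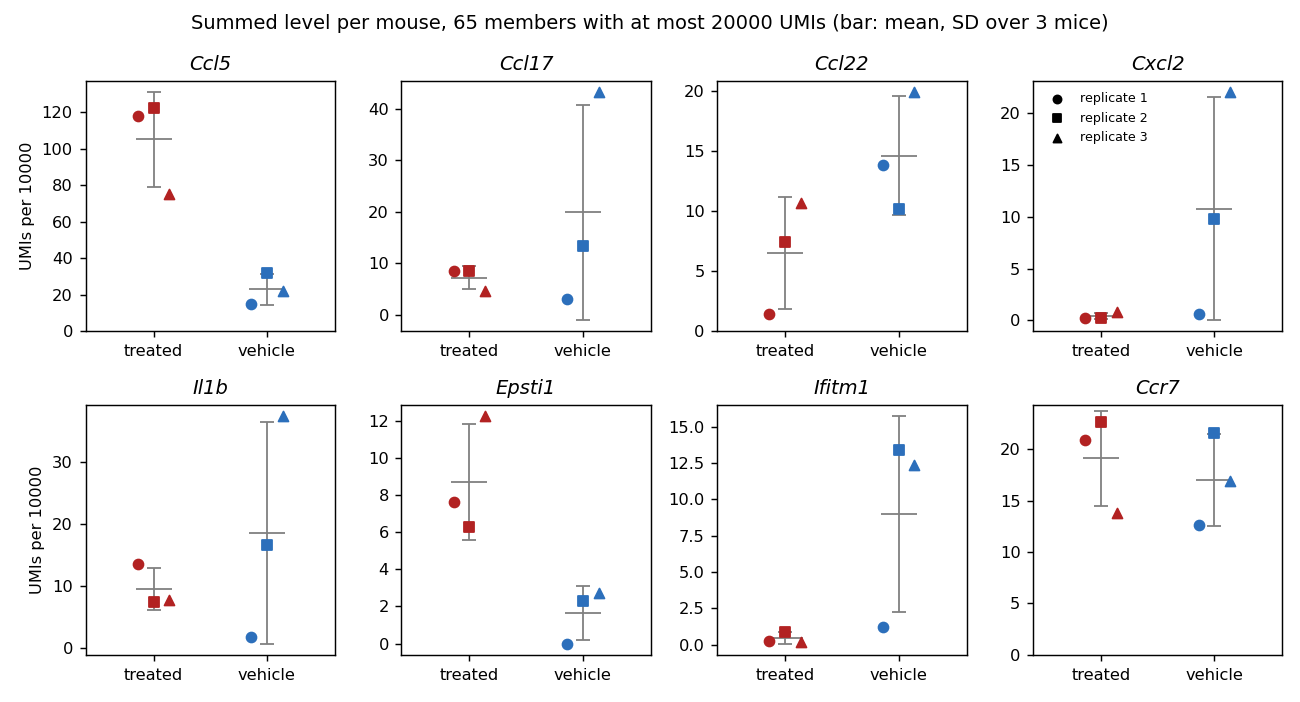
Level of 8 genes in UMIs per 10000, summed per mouse over the 65 members with at most 20000 UMIs (1 point a mouse, treated on the left, grey bars for mean and SD over 3 mice). Ccl5 and Epsti1 are higher in all 3 treated mice, Ifitm1 is lower in all 3, and for Ccl17, Cxcl2 and Il1b vehicle 1 falls within or below the treated points.

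Outside chemokines (of 4 tested beyond Ccl22, Ccl5 called higher and Ccl17 and Cxcl2 lower) and cytokines (1 of 2, Il1b), no list held a call between treated and vehicle members. Among all genes tested in members with at most 20000 UMIs, 1.52% were called. Of 12 class I genes tested in members with at most 20000 UMIs all had a positive log2 fold change, with a median of 0.62, against 378 of 788 genes positive with a median of -0.02 over all genes. None of the 12 was called. With all 69 members 11 of 13 were positive with a smaller median of 0.21, and none was called. H2-K1 stood at 28.6, 28 and 26.3 UMIs per 10000 in treated mice, against 6.0, 24.8 and 11.6 in vehicle mice. Psmb8, an immunoproteasome subunit, stood at 18.8, 13.7 and 14.2 in treated mice, against 1.20, 9.80 and 9.17 in vehicle mice. Of the 7 lysosomal genes tested 0 were called, and the summed list stood at 78.3, 78.1 and 70.3 in treated mice, against 24.0, 62.7 and 62.0 in vehicle mice. In macrophages the same sum was 232 to 248 in treated mice and 153 to 157 in vehicle mice. Of the genes set by ERK signalling 5 were tested and 0 called. All 5 had a positive log2 fold change, with a median of 0.55. With all 69 members 5 of 11 were positive, with a median of -0.057, and none was called. The ERK phosphatase genes Dusp4 and Dusp6 were too low to test in the 65, with UMIs in 3 members and 1 member. Dusp1 stood at 4.85, 5.82 and 10.1 in treated mice, against 0.60, 2.94 and 3.09 in vehicle mice. Over all genes tested in 6 mice, 46 of 598 (7.69%) were higher without overlap in treated mice and 32 (5.35%) lower.

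Ccl5 and Ccl17 varied widely from member to member. Both were detected in 24 of 65 members, Ccl5 alone in 20, Ccl17 alone in 14 and neither in 7, so detection alone does not set the genes apart. At least 10 UMIs of Ccl5 were found in 30 of 65 members and at least 10 of Ccl17 in 20, and 5 cells had both. Among the 24 treated members 16 had Ccl5 alone at that level, 3 Ccl17 alone and 2 both. Among the 41 vehicle members, 31 of them from vehicle 3, 9 had Ccl5 alone, 12 had Ccl17 alone and 3 had both. These cells are not replicates, and a bound of 10 UMIs is easier to reach in the deeper treated members. Cells with at least 10 Ccl17 UMIs held Ccl5 at 17.2 UMIs per 10000, against 91.2 in the other 45, and Ccl22, a gene of the rule, at 21.1 against 6.36. The 5 such cells of treated mice had 1 to 7 Ccl22 UMIs each. The most Ccl22 in a treated member, 34 UMIs, was in a treated 3 cell with 8 Ccl17 UMIs. Whether the Ccl22 difference holds within treated mice was not tested. The mice differ in both genes, so vehicle 3, which alone had enough cells, was read by itself. There 6 members had at least 10 UMIs of Ccl5 alone, 11 of Ccl17 alone, 2 of both and 12 of neither. The 13 cells with Ccl17 held Ccl5 at 7.06 and the other 18 held 36.3, and Ccl22 was at 33.0 and 7.22. Ccr7 was at 13.9 and 19.7, and Fscn1 at 9.42 and 17.5. Within 1 library these differences have no replicate and were not tested.

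**Figure D4:**
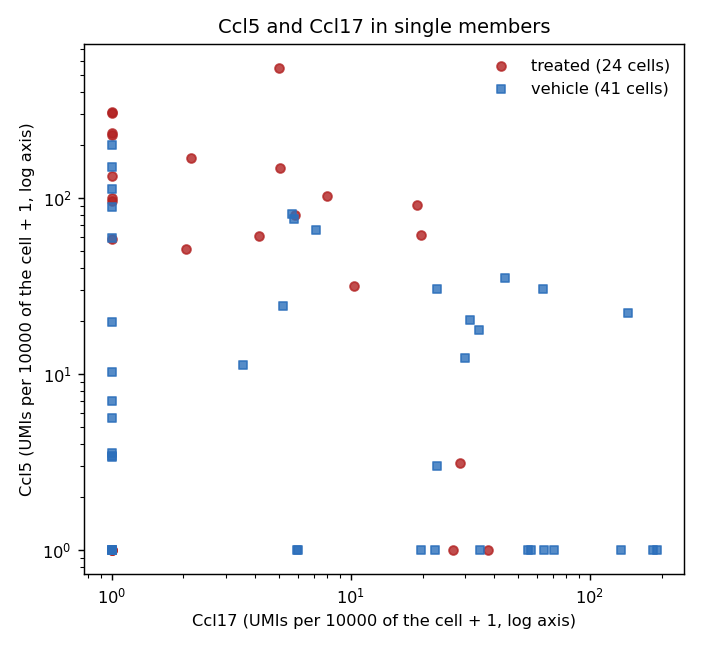
Ccl17 (x axis) and Ccl5 (y axis) in each of the 65 members, as UMIs per 10000 of the cell plus 1 on log axes, with treated cells as circles and vehicle cells as squares. The highest Ccl5 values lie at low Ccl17, and the cells with the most Ccl17 are vehicle cells.

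Il12b, a subunit of T cell-polarising interleukins, marked a smaller set. It was detected in 11 members, 2, 1 and 2 in treated 1, 2 and 3 and 0, 2 and 4 in vehicle 1, 2 and 3. Levels were 3.94, 0.45 and 2.57 UMIs per 10000 in treated mice, against 0, 7.18 and 0.87 in vehicle mice, and 4 cells had at least 10 UMIs. Cells with Il12b held Cd274 at 4.76 against 2.25 in the other 54, Irf8 at 7.64 against 3.16, and the class II chain gene Cd74 at 70.5 against 142. Their median depth was 6958 UMIs, against 4243 in the other 54, and its part in these differences was not tested. Il12b was not found in other dendritic cells.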

How the data were processed

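Tumours of 3 treated and 3 vehicle mice gave 1 10x library each, and the mouse was the replicate. The values are raw UMI counts in 1 deposited matrix a mouse, made with Cell Ranger 5.0.1 on mm10 per the submitters' processing notes. Library totals ran from 22996012 to 126645602 UMIs. Barcodes with at least 500 UMIs, 250 genes and at most 20% mitochondrial UMIs were kept (39928 of 44819). Doublets were scored with Scrublet in scanpy 1.11.5 (the highest 0.8% per 1000 barcodes) and removed only as an alternative. Counts were summed per mouse and tested with edgeR 4.0.16 (TMM, filterByExpr, robust quasi-likelihood, Benjamini-Hochberg at 0.05, two-sided) in R 4.3.3, with DESeq2 1.42.0 as an alternative. The minimum of 10 cells per mouse set at the outset could not be fitted, so at least 5 were required (1 for type 2-like cells). Thinning drew 2000 UMIs per cell. The scripts were tested on simulated counts.

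Members, gene lists and tests were chosen with earlier results of these data known. Genes were named if they belonged to the rule or a list, or passed the threshold without overlap, the largest changes being taken (or, with under 5 such genes, the smallest p). The limit of 20000 UMIs and the pooled dendritic and macrophage comparisons were added after the data were seen, and of their calls the genes named outside these rules were chosen after their values were seen. Coordinates are from GENCODE M21 on mm10, promoters from RefSeq (GRCm38.p6). Intervals for shares are exact binomial. Nothing in the labels tells whether the mice share litters.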

Additional observations from a re-analysis of the deposited data

How the results depend on the processing

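The share of members among all cells, treated minus vehicle, kept an exact permutation p of 0.3 or more in each alternative. Its sign turned with cells of at most 20000 UMIs (0.0158 percentage points) and with Ptprc-positive cells (0.220). Thinning to 2000 UMIs gave the lowest difference, -0.113, and leaving out each mouse moved it between -0.0604 and 0.0461. The share among dendritic cells was -0.137 with the stricter marker rule (2 treated mice with enough cells), and 1.94 to 25.9 with each mouse left out. Replicate numbers showed no pairing (correlations of same-number deviations 0.028, 0.105 and -0.086 over 598 genes), and with the number as a block the share among all cells gave exact p = 1 (smallest possible 0.25), that among dendritic cells exact p = 0.75, and 0 genes were called. Without the mouse block the paired fits called 78 (type 2-like), 100 (type 1-like), 126 (both pooled) and 1364 (macrophage) genes.

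Genes called between treated and vehicle members numbered 0, against 2 with DESeq2, 22 without a filter on low counts, 17 with the stricter marker rule (1 vehicle mouse), 2 without doublets, 12 with at most 20000 UMIs and 0 to 7 with each mouse left out, 7 being without treated 3; where 1 vehicle mouse is left, it is assumed to vary like the treated mice. Against type 2-like cells 90 genes were called, 242 without the filter and 52 to 117 with each mouse left out. Against type 1-like cells the 97 became 392 without the filter, 175 with the stricter rule, 168 with at most 20000 UMIs and 110 to 180 by mouse. Against both pooled the 113 became 479, 192 with at most 20000 UMIs and 64 to 142 by mouse. Against macrophages the 1577 became 749 with at least 10 cells and 1190 to 1404 by mouse. The fits with at least 10 cells (other than macrophages) or 20 cells could not be fitted, and the thinned share among dendritic cells was not run because too few mice had 10 such cells. Of 399 alternative values for single genes, 355 kept direction and side of the threshold, 8 were weaker, 24 stronger and 12 turned sign: Lgals3 without 1 mouse (range -1.26 to 0.37, above 0 without vehicle 3), Ccr7 with the stricter rule (0.13), at most 20000 UMIs (0.035, with all mice 0.17) and without 1 mouse (range -0.83 to 0.19, above 0 without treated 2, treated 3 or vehicle 3), Fscn1 with the stricter rule (0.049) and at most 20000 UMIs (0.12, with all mice 0.020), and Cd274 with the stricter rule (0.027) and at most 20000 UMIs with all mice (0.034). The cause was not tested. With 4 to 32 members a mouse, most genes were too low to test.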

Other observations

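The 12 cell cycle genes summed in the 65 members to 0.39 to 2.46 UMIs per 10000 in treated mice and 1.16 to 3.92 in vehicle mice, against 4.23 to 7.86 and 7.33 to 8.13 in all other cells. This is not particular to members: other dendritic cells were lower still in 5 mice, at 0 to 1.25, and stood at 8.85 in vehicle 2. With all 69 members treated 2 was at 7.53, against 7.75 in its other cells. The 24 autophagy genes summed to 17.2 to 23.0 in treated members and 12.6 to 22.5 in vehicle members, and the ubiquitin-like gene Gabarap among them stood at 8.0, 5.82 and 4.74 in treated mice, against 6.0, 6.86 and 7.04 in vehicle mice. The 22 cholesterol synthesis genes summed to 6.94 to 10.7 in treated members and 4.80 to 10.1 in vehicle members. Npc2, which carries cholesterol out of lysosomes, stood at 14.2, 16.8 and 7.70 in treated mice, against 3.00, 7.84 and 5.02 in vehicle mice. Id2, a transcription regulator of dendritic cell development, stood at 11.2, 14.3 and 15.0 in treated mice, against 0.60, 6.2 and 7.91 in vehicle mice, without overlap and not called. Il4i1 stood at 2.89, 4.25 and 3.75 in treated mice, against 6.0, 6.2 and 6.18 in vehicle mice, also without overlap. Over all genes tested in 6 mice, 46 of 598 (7.69%) were higher without overlap in treated mice and 32 (5.35%) lower.

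The monocyte gene Chil3 had 49 UMIs over the 8 treated 3 members, 47 of them in 1 cell, where macrophages of that mouse held it at 87.2 UMIs per 10000 and those of the other mice at 3.97 or less. The summed monocyte markers reached 16.6 UMIs per 10000 there, against 3.96 or less in the other mice.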
